A study of Mus musculus with 4 samples.

Results

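The cAMP cascade is the signalling route that begins at adenylyl cyclases and ends at the transcription factor CREB. Its members here were all probesets whose single platform gene symbol begins with Adcy, Pde, Prkac, Prkar, Akap, Creb or Crtc, followed by a number except for the kinase subunits, whatever their values. This took 174 of the 45101 probesets on the array, for 67 genes. The arrays held hippocampal RNA of male DBA/2J mice, an inbred strain, 8 to 10 weeks old by the sample labels, with no genetic change in either group. Control mice drank untreated water (0 mg/kg per day), and fluoxetine mice drank water that delivered 18 mg/kg per day of fluoxetine, a serotonin reuptake blocker, for 21 days. Each group was 12 mice in 2 RNA pools of 6 mice, with 1 Affymetrix mouse whole-genome array per pool, so n is 2 pools per group and the spread between single mice was averaged within pools. The comparison asks which transcripts of the cascade differ after chronic fluoxetine.

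In this cascade, receptors coupled to the stimulatory G protein Gs switch on adenylyl cyclases, which make cyclic AMP, and receptors coupled to Gi restrain them. Phosphodiesterases break cyclic AMP down. Cyclic AMP releases the catalytic subunits of protein kinase A (PKA) from its regulatory subunits, and A-kinase anchoring proteins hold the enzyme near its substrates. PKA phosphorylates CREB, which with CRTC coactivators switches on genes that carry the cyclic AMP response element. In hippocampal neurons the route is known for its part in lasting synaptic strengthening and memory, and it has long been studied in the action of antidepressants. Much of its regulation works through phosphorylation, which an array does not measure.

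The median intensity of the 4 arrays lay between 22.6 and 23.3, and Snap25, Rbfox3 and Zbtb20, markers of hippocampal neurons, were well above 100 in all of them. Of 8 striatal markers 6 were not tested. Drd2, Six3, Ido1 and Syndig1l were under 10 in every array. Gpr6 read between 9.87 and 23.3, and Rgs9 between 34.2 and 35.6 at its brightest probeset. The other two, Ppp1r1b and Tac1, which are also expressed outside the striatum, were higher in both fluoxetine pools without passing, and the tested list summed to 840.4 and 1053 in control and to 1214 and 1279 in fluoxetine pools. The choroid plexus gene Ttr measured 37860 in control pool 1 against 2002 in control pool 2, and 51100 in fluoxetine pool 1 against 4429 in fluoxetine pool 2, so the pools numbered 1 held more of that transcript in both groups. Each of the 18 hybridisation spike-in probesets read above both controls in both treated arrays (median log2 fold change 0.36), and all tested probesets together had a median of -0.04. The part of either in the results that follow was not tested.

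Creb3l2 was the one member gene of the cascade that passed the test, and it could be tested only because of its level in the fluoxetine arrays. Of the 67 genes, 46 had at least 1 probeset that reached an intensity of 100 in at least 2 of the 4 arrays and could be tested. At each gene's brightest tested probeset, 1 of 46 genes rose and 0 fell by limma at an adjusted p (Benjamini-Hochberg) under 0.05, against 1.86% of all 9030 genes tested, so the share of the cascade (2.17%) was near the background. With the trend and robust settings of limma, Adcy1 (adjusted p = 0.0294) and Prkar1b (0.0438) passed as well. Those settings also raised the number of calls over all probesets of the array, given with the processing below. Over probesets, 1 of 84 passed, against 1.72% of all probesets. By the submitters' rule of a 2-fold difference with no test, 1 of the 84 was taken, again Creb3l2, against 0.791% of all probesets. At an unadjusted p under 0.05 there were 5 genes higher and 10 lower, against 22% of all genes in either direction (9.37% higher and 12.7% lower). These shares are also the background for the unadjusted counts of each step and list below. The 45 genes that did not pass had log2 fold changes from -0.64 to 0.37 and adjusted p from 0.0707 to 0.997. The 95% interval of the log2 fold change lay within 1 of zero for all 45 of them, and within 0.5 of zero for 34. The median over the 46 genes was -0.02, against -0.03 over all genes tested. Arrays of the groups did not overlap for 27 of the 46 genes (58.7%), 13 higher and 14 lower, against 56.3% of all genes tested (23.6% higher and 32.7% lower).

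**Figure D1:**
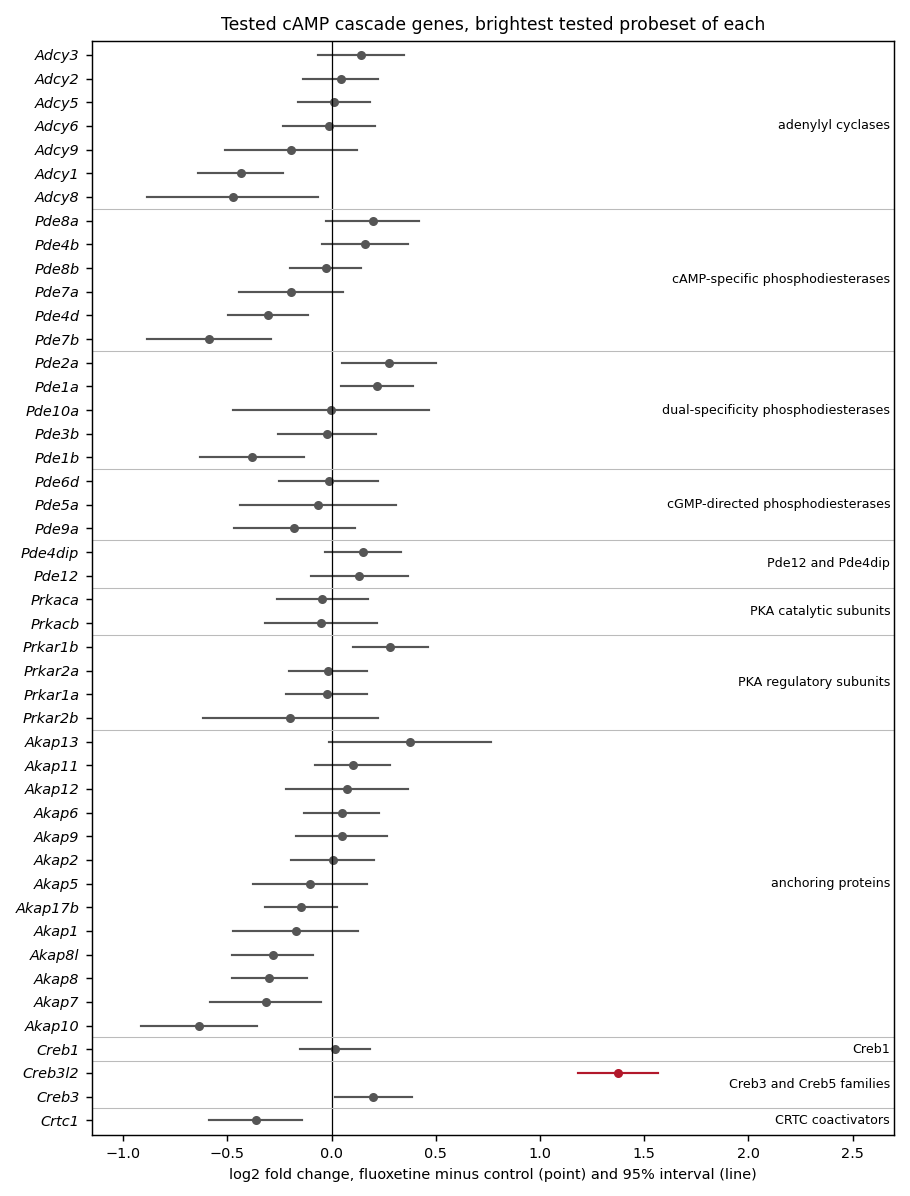
Log2 fold change (fluoxetine minus control, points) with its 95% interval (lines) at the brightest tested probeset of each of the 46 tested cascade genes, ordered by step. Creb3l2, in red, stands at 1.37, and the other 45 genes, in grey, lie between -0.64 and 0.37.

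The 21 genes with no tested probeset were mostly far under the minimum. In 16 of them no array exceeded 15 at any probeset, among them the soluble cyclase gene Adcy10, the retinal phosphodiesterase genes Pde6a, Pde6b, Pde6c, Pde6g and Pde6h, and Creb5. The remaining 5 were closer to it: the highest value was 96.0 for Crtc3, 90.6 for Pde4a, 63.4 for Adcy7, 47.0 for Crtc2 and 22.8 for Pde1c. Dim values of this kind carry little information on a difference. Of the 84 probesets tested, 78 reached 100 in all 4 arrays. A further 3 passed that minimum in the control arrays alone (Akap10, 1 of Pde7a and 1 of Prkar2b), and 1, Creb3l2, in the fluoxetine arrays alone. A probeset admitted through 1 group had to differ between the groups, so its difference is described with that limit.

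Adenylyl cyclases come in forms that answer to different inputs. Adcy1 and Adcy8 encode the cyclases that calcium and calmodulin stimulate, which couple neuronal activity to cyclic AMP in the hippocampus. Adcy1 had control values of 8066 and 7852 and fluoxetine values of 6157 and 5617. Both treated pools lay below both controls, a 1.35-fold lower mean with log2 -0.44 ± 0.08 (the fold change and its SE, n = 2 pools a group) that did not pass (adjusted p = 0.0748). The second tested Adcy1 probeset pointed the same way (log2 -0.37 ± 0.16, adjusted p = 0.261). Adcy8 read 231 and 278 in control pools, with 206 and 161 in fluoxetine pools. Its arrays did not overlap either, at log2 -0.47 ± 0.16, but the pools of each group differed widely (adjusted p = 0.181). In bulk tissue, fewer cells of a type and less RNA per cell cannot be told apart. Of the dentate granule cell markers, among them Prox1, Calb1 and Dsp, 8 of 10 were tested, and their summed intensity was 11850 and 10490 in control and 8659 and 8653 in fluoxetine pools. The list did not move as one, with 3 tested genes above zero, 5 below and a median log2 fold change of -0.25. Dock10 (log2 -0.41) and Stxbp6 (-0.35) had both treated pools below both controls without passing, and Trpc6 was at -0.15. Dsp fell (log2 -1.79, adjusted p = 0.0495), and Prox1 was at log2 0.17. Calb1 was at log2 -0.45 at its brightest probeset. Its other tested probesets were at -1.16, which passed (adjusted p = 0.0436), and at -1.01, which did not (0.0660). C1ql2 read 153 and 112 in control against 303 and 263 in fluoxetine pools, at log2 1.11 (adjusted p = 0.0637). Npnt, at log2 0.72, had both treated pools above both controls as well and did not pass either (adjusted p = 0.0865). The part of these cells in the Adcy1 and Adcy8 values was not tested.

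The other tested cyclases lay closer to zero. Adcy9, a widely expressed form, measured 2572 and 2102 in the control pools against 2125 and 1940 in the fluoxetine pools, so the groups overlapped at this probeset. All 4 of its tested probesets were lower on average, between log2 -0.23 and -0.15, and none passed by limma (lowest adjusted p = 0.260). Adcy3, the cyclase of olfactory neurons and of neuronal primary cilia, had control values of 389 and 384 and fluoxetine values of 405 and 448, log2 0.14 ± 0.08 (adjusted p = 0.367), and its 3 probesets were all higher. Adcy5 and Adcy6, the calcium-inhibited forms, were at log2 0.01 (95% interval -0.16 to 0.19) and -0.01 (-0.23 to 0.21), and Adcy2, which G protein beta-gamma subunits stimulate, at 0.04. Of the 7 tested cyclase genes, 0 passed by limma, with 0 higher and 2 lower at an unadjusted p under 0.05, and the median log2 fold change was -0.01.

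The cAMP-specific phosphodiesterases belong to families 4, 7 and 8. Of 6 tested genes 0 passed by limma, with 0 higher and 2 lower at an unadjusted p under 0.05, and the median log2 fold change was -0.11. Pde7b, a brain form that resists the family 4 inhibitor rolipram, read 222 and 185 in control pools, with 129 and 141 in fluoxetine pools. The groups did not overlap, with geometric means of 203 and 135 (log2 -0.59 ± 0.11, adjusted p = 0.0844). Its relative Pde7a measured 407 and 359 in the control pools against 320 and 348 in the fluoxetine pools at its brightest probeset, log2 -0.19 ± 0.10. All 5 tested Pde7a probesets were lower, from log2 -0.08 to -0.68. The probeset at -0.68 (adjusted p = 0.0748) had 122 and 150 in control against 87.9 and 80.7 in fluoxetine pools, so it was admitted through the control arrays alone, and set against the minimum of 100 its fold is at least 1.35 lower.

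Family 4 enzymes are the targets of rolipram, which has been studied as an antidepressant and memory enhancer. Pde4d had control values of 1016 and 1037 and fluoxetine values of 798 and 864. Both treated pools were below both controls, by a mean of 1.24-fold (log2 -0.31 ± 0.07), without passing (adjusted p = 0.116). Pde4b read 974 and 962 in control pools, with 1136 and 1029 in fluoxetine pools, log2 0.16 ± 0.08 (adjusted p = 0.311). Its second probeset was at 0.18. Pde4b thus lay on the other side of zero from Pde4d, and neither passed. Pde8a measured 136 and 128 in the control pools against 144 and 160 in the fluoxetine pools (log2 0.20 ± 0.09, adjusted p = 0.262). Pde8b was at log2 -0.03, with a 95% interval from -0.20 to 0.14.

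The dual-specificity phosphodiesterases of families 1, 2, 3 and 10 break down both cyclic AMP and cyclic GMP. Of 5 tested genes 0 passed by limma, with 2 higher and 1 lower at an unadjusted p under 0.05. Pde1b, stimulated by calcium and calmodulin, had control values of 624 and 644 and fluoxetine values of 525 and 451. The groups did not overlap, at log2 -0.38 ± 0.10 (adjusted p = 0.121). Pde1a, of the same family, stood in the other direction, with 2269 and 2244 in control and 2582 and 2665 in fluoxetine pools (log2 0.22 ± 0.07, adjusted p = 0.159). Pde2a, which cyclic GMP stimulates, read 3965 and 4330 in control pools, with 4792 and 5251 in fluoxetine pools. Its treated pools lay above both controls, by 1.21-fold on average (log2 0.28 ± 0.09, adjusted p = 0.170), and its second probeset was at 0.16. Pde10a, known for its high level in striatum, measured 1880 and 2026 in the control pools against 1632 and 2327 in the fluoxetine pools, which overlapped fully (log2 -0.00 ± 0.18). Pde3b was at log2 -0.02 (95% interval -0.26 to 0.21).

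The remaining genes named Pde had small differences. Of the 3 tested genes directed at cyclic GMP, or named for that family, 0 passed by limma and 0 had an unadjusted p under 0.05. Pde9a had control values of 111 and 135 and fluoxetine values of 107 and 110 (log2 -0.18 ± 0.11). Pde5a was at log2 -0.07 ± 0.14, and Pde6d, which encodes a carrier of prenylated proteins rather than a catalytic enzyme, at -0.01 ± 0.09. Pde12, a mitochondrial enzyme that trims RNA, and Pde4dip, the centrosomal and Golgi scaffold myomegalin, share the name but do not hydrolyse cyclic nucleotides. They were at log2 0.13 and 0.15. The 4 tested Pde4dip probesets did not share a direction, running from -0.09 to 0.25, and none passed (lowest adjusted p = 0.156 by limma).

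The catalytic subunits of PKA overlapped between the groups. Prkaca read 4313 and 4786 in control pools, with 4286 and 4529 in fluoxetine pools, and Prkacb, the form abundant in neurons, read 4653 and 5529 against 4922 and 4873. The log2 fold changes were -0.04 (95% interval -0.26 to 0.18) for Prkaca and -0.05 (-0.32 to 0.22) for Prkacb. The upper ends of these intervals stand for a 1.13-fold and a 1.16-fold rise. A second Prkaca probeset was lower, at 481 and 528 in control and 421 and 400 in fluoxetine pools (log2 -0.30 ± 0.08, adjusted p = 0.137). Both carry an Affymetrix suffix that allows several transcripts, so the 2 probesets may not report the same RNA.

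Among the regulatory subunits, which bind cyclic AMP and inhibit the kinase, Prkar1b was higher at all of its probesets without passing. It encodes the type I beta subunit, which is largely confined to the nervous system. At its brightest probeset it measured 14270 and 15090 in the control pools against 17900 and 17770 in the fluoxetine pools. Both treated pools lay above both controls, by a mean of 1.22-fold (log2 0.28 ± 0.07, 95% interval 0.10 to 0.46), and the difference did not pass (adjusted p = 0.117). Its 5 tested probesets were all higher, from log2 0.28 to 0.50, with no overlap between groups in any of the 5 and adjusted p from 0.0827 to 0.216. The probeset furthest from zero had 1150 and 1328 in control and 1805 and 1701 in fluoxetine pools. These probesets read the same RNA in the same 4 pools and are not independent replicates, and 3 of them can match related transcripts by their suffix.

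The other regulatory subunits did not share that direction. Prkar1a, the ubiquitous type I alpha form, had control values of 9775 and 10470 and fluoxetine values of 10160 and 9736, log2 -0.02 (95% interval -0.22 to 0.17). Prkar2a read 728 and 771 in control pools, with 727 and 754 in fluoxetine pools, log2 -0.02 (-0.20 to 0.17). Both overlapped between the groups. Prkar2b, the type II form common in forebrain neurons, measured 802 and 1056 in the control pools against 741 and 867 in the fluoxetine pools (log2 -0.20 ± 0.16, adjusted p = 0.510). Its 3 probesets were all lower, to -0.46 at the dimmest, which was admitted through the control arrays alone (102 and 102 against 78.5 and 70.4). Whether Prkar1b and Prkar2b differ from each other was not tested. Of the 6 PKA subunit genes, 0 passed by limma, with 1 higher and 0 lower at an unadjusted p under 0.05.

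**Figure D2:**
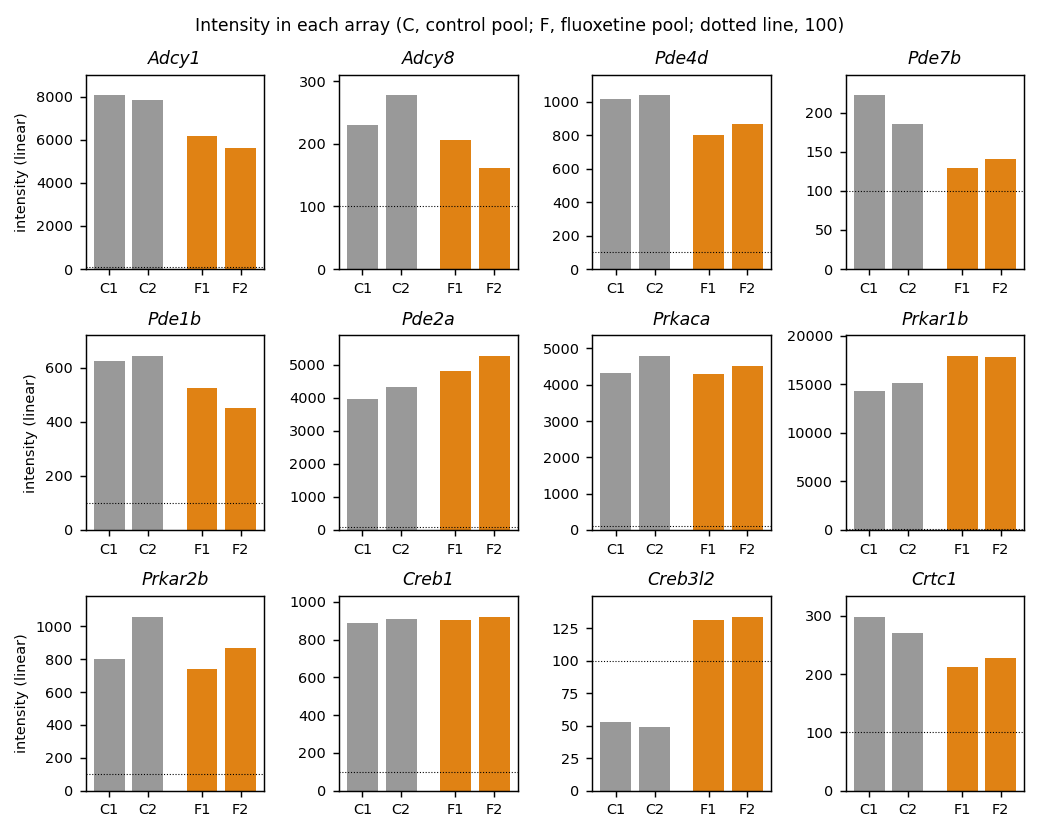
Deposited intensity (linear scale, bars from 0) in each of the 4 arrays at the brightest tested probeset of 12 cascade genes, with control pools C1 and C2 in grey, fluoxetine pools F1 and F2 in orange and a dotted line at the minimum of 100. Creb3l2 crosses that line between the groups, Adcy1, Pde4d, Pde7b, Pde1b and Crtc1 are lower in both treated pools, and Prkaca, Prkar2b and Creb1 overlap.

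Start-site sequences of Prkar1b and Prkar1a are shown because the type I beta form was higher at every probeset and the type I alpha form carries the response element. They are RefSeq windows on the GRCm38.p6 assembly, a C57BL/6J genome and not DBA/2J, of 250 bases before and 50 bases after an annotated start, written in the direction of the gene. Capitals mark TGACGTCA, the palindromic cyclic AMP response element, and the half-site TGACG or its complement CGTCA, both found by letter match on either strand. Each half-site also lies within the 8-base motif and was then counted once, as the 8-base one. For Prkar1b, 1 of 5 windows held a half-site and none the 8-base motif, and it is the window at chr5:139149952-139150251, minus strand. For Prkar1a, 2 of 6 windows, which overlap each other, held the 8-base motif, which in the window at chr11:109650699-109650998, plus strand, begins 49 bases before the start.
Prkar1b: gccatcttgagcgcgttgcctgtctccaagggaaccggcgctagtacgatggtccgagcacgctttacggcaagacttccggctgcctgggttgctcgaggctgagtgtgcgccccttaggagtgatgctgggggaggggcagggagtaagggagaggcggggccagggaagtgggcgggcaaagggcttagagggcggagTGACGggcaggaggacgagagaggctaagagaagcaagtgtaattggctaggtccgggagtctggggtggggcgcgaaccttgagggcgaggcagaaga
Prkar1a: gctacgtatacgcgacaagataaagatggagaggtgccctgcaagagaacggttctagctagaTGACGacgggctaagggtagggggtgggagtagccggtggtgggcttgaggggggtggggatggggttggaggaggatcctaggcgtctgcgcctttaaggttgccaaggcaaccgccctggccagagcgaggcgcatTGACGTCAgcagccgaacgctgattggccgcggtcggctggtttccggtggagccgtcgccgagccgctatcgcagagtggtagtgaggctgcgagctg
Prkar1a, with the 8-base motif, overlapped between the groups, and Prkar1b, without it, was higher without passing. These are single genes, and any relation of the motif to a difference was not tested. Of all 27025 genes in the promoter table, 2.03% held the 8-base motif in some window and 23.0% held it or a half-site. Among the 54 cascade genes in the table, 2 held the 8-base motif (3.7%), Prkar1a and Creb5, and 20 held it or a half-site (37.0%). Genes differ in how many windows they have. A match is a run of letters and not a measured binding site.

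Anchoring proteins place PKA at membranes, in the nucleus and at the cytoskeleton. Of 13 tested genes 0 passed by limma, with 0 higher and 4 lower at an unadjusted p under 0.05, and the median log2 fold change was -0.10. Over all genes tested, 9.37% were higher and 12.7% lower at that threshold. Akap10, which binds both types of PKA and sits at mitochondria and endosomes, read 127 and 107 in control against 77.2 and 72.8 in fluoxetine pools at its one tested probeset. It was admitted through the control arrays alone, so its fold is a bound, at least 1.17 lower, and it did not pass (measured log2 -0.64 ± 0.11, adjusted p = 0.0707). Another Akap10 probeset, just short of the filter, overlapped between the groups, at 101 and 92.4 against 92.8 and 92.9. Akap7, which brings PKA to ion channels, had control values of 834 and 988 and fluoxetine values of 722 and 736 (log2 -0.32 ± 0.10, adjusted p = 0.176). The nuclear protein genes Akap8 and Akap8l lay on the same side. Akap8 read 688 and 677 in control pools, with 540 and 571 in fluoxetine pools (log2 -0.30 ± 0.07, adjusted p = 0.110), with its second probeset also at -0.30, and Akap8l was at log2 -0.28 ± 0.07 (adjusted p = 0.131).

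The anchoring protein gene Akap13 was higher without passing. It measured 833 and 625 in the control pools against 923 and 947 in the fluoxetine pools (log2 0.37 ± 0.15, adjusted p = 0.234), and its second probeset was at 0.36. The distance between the control pools was wider than that from the higher control to either treated pool. Akap5, the postsynaptic anchor that ties PKA and calcineurin to glutamate receptors, was at log2 -0.10 ± 0.11, and Akap11, an anchor of endosomes, at 4968 and 5035 in control and 5505 and 5223 in fluoxetine pools (log2 0.10 ± 0.07). Akap6 and Akap9, anchors of the nuclear envelope and of the Golgi and centrosome, were both at log2 0.05. Akap12, which shuttles PKA to adrenergic receptors, was at 0.07 and Akap2 at 0.00.

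**Figure D3:**
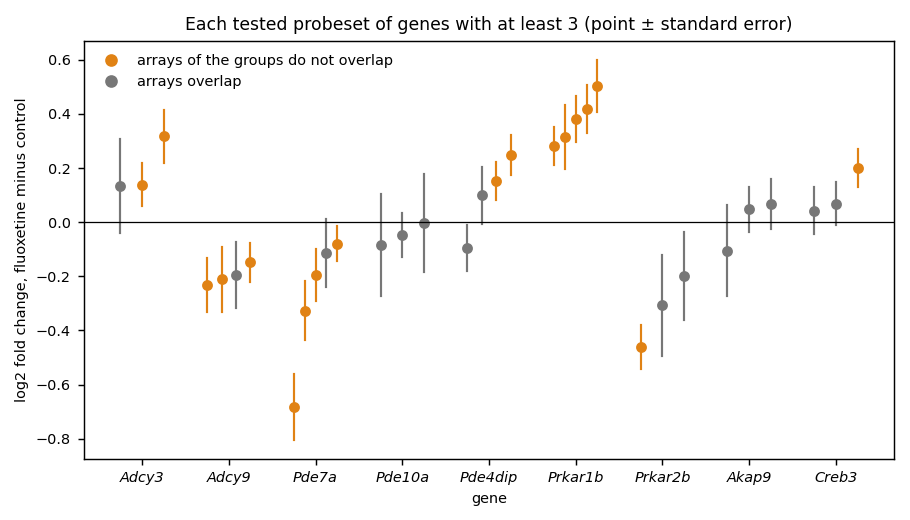
Log2 fold change (fluoxetine minus control) with its standard error for each tested probeset of the 9 cascade genes that had at least 3, in orange where the arrays of the groups did not overlap and in grey where they did. All 5 Prkar1b probesets lie above zero, from 0.28 to 0.50, and all 5 of Pde7a and all 4 of Adcy9 below it, while Pde4dip and Akap9 straddle it.

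Over the cascade, 23 genes had more than 1 tested probeset, and in 20 of them (87.0%) all probesets pointed the same way, against 64.9% of the 3748 such genes on the array. Akap9, Pde4dip and Prkar2a were the exceptions. Genes differ in their number of probesets, and the difference between these shares was not tested.

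Creb1, which encodes CREB itself, stood close to zero. It had control values of 891 and 911 and fluoxetine values of 903 and 920, which overlapped. The log2 fold change was 0.02 ± 0.07 with a 95% interval from -0.15 to 0.19, and the adjusted p was 0.901. Its second probeset was at 0.13 (adjusted p = 0.331). Crtc1, the coactivator most tied to neurons, read 298 and 270 in control pools, with 213 and 228 in fluoxetine pools. Both treated pools lay below both controls, by 1.29-fold on average, without passing (log2 -0.36 ± 0.09, adjusted p = 0.110). Crtc2 and Crtc3 were under the minimum in all arrays, as given above.

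Creb3l2 encodes a CREB-related factor that is held in the endoplasmic reticulum membrane and released by cleavage when that compartment is stressed. It supports the secretory pathway and is not a classical PKA target. It measured 52.9 and 49.1 in the control pools against 131 and 133 in the fluoxetine pools. Both controls were under the minimum of 100 and both treated pools above it, so Creb3l2 was admitted through the treated arrays alone and its rise is a bound, at least 1.32-fold against 100. The measured log2 fold change was 1.37 ± 0.07 (adjusted p = 0.0172). A second Creb3l2 probeset was near the array's floor throughout, between 4.14 and 4.23. The call was lost with values under 100 set to 100 (adjusted p = 0.0640), with no intensity filter (0.147), with the pool number as a block (0.0809), and without any 1 array (0.113 to 0.162).

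Of the marker lists of glial and vascular cells, those of microglia, vessels and astrocytes had higher sums in the fluoxetine pools, as an earlier description of these arrays showed, and that of oligodendrocytes had lower ones. The 9 of 12 microglia markers that were tested, Aif1, Cx3cr1 and Csf1r among them, summed to 4549 and 4455 in control and to 7292 and 7106 in fluoxetine pools. The 9 of 12 tested endothelial and mural markers summed to 4760 and 4664 and to 5973 and 5815, and the 12 of 12 astrocyte markers to 70620 and 73010 and to 79490 and 83110. Rgs5 was the brightest endothelial and mural gene, at 1768 and 1761 in control and 2660 and 2648 in fluoxetine pools. Of those 9 genes, 7 were above zero and 2 below, Acta2 (log2 -0.27) and Abcb1a (-0.04). The astrocyte list did not move as one. It had 8 genes above zero and 4 below, from Gfap at log2 2.78 to Fgfr3 at -0.44. The 10 of 10 oligodendrocyte markers summed to 61750 and 61280 in control and to 59320 and 59220 in fluoxetine pools. Their median log2 fold change was -0.007, with 3 genes above zero and 7 below. The part of any of these cells in the rise of Creb3l2 was not tested. Creb3, the founding member of that membrane-bound family, had control values of 798 and 800 and fluoxetine values of 888 and 948 (log2 0.20 ± 0.07, adjusted p = 0.198), and its other probesets were at 0.07 and 0.04.

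The start window of Creb3l2 is shown because this was the member that passed. It lies at chr6:37442099-37442398 on GRCm38.p6, minus strand, and holds 1 half-site that begins 196 bases before the start, but not the 8-base motif.
Creb3l2: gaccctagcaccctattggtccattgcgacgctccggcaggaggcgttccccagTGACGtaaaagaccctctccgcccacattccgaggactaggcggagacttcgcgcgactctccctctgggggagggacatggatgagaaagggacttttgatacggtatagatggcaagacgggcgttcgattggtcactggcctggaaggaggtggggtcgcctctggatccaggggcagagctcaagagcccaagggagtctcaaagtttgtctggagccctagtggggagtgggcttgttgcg
A half-site or 8-base motif was found in 23.0% of all genes.

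Genes around the cascade were taken from lists of its receptors, G proteins, effectors and targets, chosen with earlier results on these arrays known. Of 9 tested G protein alpha subunit genes 0 passed by limma, with 1 higher and 0 lower at an unadjusted p under 0.05, and Gnas, which encodes the stimulatory subunit, was at log2 -0.01 ± 0.07. Among 6 tested genes of Gs-coupled receptors Drd1 rose and the constitutively active receptor gene Gpr12 fell. Drd1 read 126 and 160 in control pools, with 484 and 458 in fluoxetine pools (log2 1.73 ± 0.13, adjusted p = 0.0262). Gpr12 read 221 and 193 against 111.4 and 110.5 (log2 -0.89 ± 0.09, adjusted p = 0.0369). The serotonin receptor gene Htr4 was at log2 0.58 ± 0.10 (adjusted p = 0.0755). Among 12 tested genes of Gi-coupled receptors 1 rose and 1 fell. Sstr2, a somatostatin receptor gene, measured 111 and 126 in the control pools against 307 and 255 in the fluoxetine pools (log2 1.25 ± 0.12, adjusted p = 0.0367). Htr1b, which encodes an inhibitory serotonin receptor, was admitted through the control arrays alone and was at least 2.04-fold lower (191 and 217 against 86.6 and 92.0, adjusted p = 0.0262). The changes at the receptors thus went in both directions on each side, and the background was 1.31% of genes higher and 0.554% lower.

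Downstream of cyclic AMP, the other lists gave no calls by limma over all probesets. The PKA inhibitor genes Pkia and Pkig were at log2 -0.06 and 0.02, and Pkib at -0.37 ± 0.13 (adjusted p = 0.201), with 0 of 3 passing and 0 higher and 1 lower at an unadjusted p under 0.05. Of 4 tested other effectors 0 passed (0 higher and 1 lower unadjusted), the exchange factor gene Rapgef2 being at -0.25 ± 0.07. Of 9 other anchoring genes 0 passed (1 and 2 unadjusted), with Synm at -0.54 ± 0.15. Of 15 PKA substrate and phosphatase genes 0 passed (2 and 1 unadjusted). The largest difference there was that of Ppp1r1b, which encodes the phosphatase inhibitor DARPP-32 and is also on the striatal marker list, at 130 and 126 in control and 187 and 217 in fluoxetine pools (log2 0.66 ± 0.10, adjusted p = 0.0590). Of 8 other CREB family factors and coactivators 0 passed (1 and 3 unadjusted). Crebrf had control values of 536 and 571 and fluoxetine values of 387 and 408 (log2 -0.48 ± 0.07, adjusted p = 0.0638). Crem, a cyclic AMP-inducible relative of CREB, was at log2 0.55 ± 0.15 (adjusted p = 0.145), and the coactivator gene Crebbp at -0.29 ± 0.11. Of the salt-inducible kinase genes, whose products hold CRTC proteins in the cytoplasm, Sik2 and Sik3 were tested and 0 passed, with 0 in either direction unadjusted.

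Among 22 tested genes known as CREB targets, 7 rose, encoding peptides, growth factors and regulators, and none fell by limma. At an unadjusted p under 0.05 there were 9 higher and 2 lower. The median log2 fold change was 0.30, and the 7 calls stand against 1.31% of genes higher over the array. The list was chosen with the rise of several of its genes known, so its count is a description. Besides Penk, Bdnf, Inhba, Gadd45b and Vgf, these were Rgs2 and Scg2. Inhba, an activin subunit gene, was admitted through the fluoxetine arrays alone (38.4 and 43.6 against 309 and 296), so it had to differ and its rise is a bound, at least 3.02-fold against 100. Rgs2, a regulator of G protein signalling, read 2563 and 2829 in control pools, with 5420 and 6802 in fluoxetine pools (log2 1.17 ± 0.13, adjusted p = 0.0402). All 3 of its tested probesets passed. Scg2, which encodes a granin of dense-core vesicles, measured 4501 and 3943 in the control pools against 8274 and 8319 in the fluoxetine pools (log2 0.98 ± 0.09, adjusted p = 0.0350).

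Other textbook targets did not pass the test. Fos, an immediate early gene, was furthest from zero among them, with control values of 268 and 230 and fluoxetine values of 483 and 1039. Both treated pools lay above both controls but far from each other (log2 1.51 ± 0.37, adjusted p = 0.117). The peptide genes Crh, at log2 0.59 ± 0.24 (adjusted p = 0.235), and Tac1, at 0.36 ± 0.14 (0.223), also had no overlap between the groups. In the other direction, Per1, Sst and Ppargc1a had both treated pools below both controls. Ppargc1a was at log2 -0.30 ± 0.11 (adjusted p = 0.1985). Nr4a1 had control values of 661 and 722 and fluoxetine values of 524 and 1201 (log2 0.20 ± 0.39), so the treated pools lay on both sides of the controls. Nr4a2 was at log2 -0.25 ± 0.20 and Nr4a3 at 0.12 ± 0.14, Per1, a clock gene, at -0.50 ± 0.15 (adjusted p = 0.155) and Dusp1, a phosphatase of the MAP kinases, at -0.23 ± 0.22. Sst, which encodes somatostatin and is the gene in which the response element was first studied, read 2738 and 2878 in control pools, with 2535 and 2628 in fluoxetine pools (log2 -0.12 ± 0.07, adjusted p = 0.372). Its interval ran from -0.30 to 0.06, below the value of each of the 7 targets that rose.

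**Figure D4:**
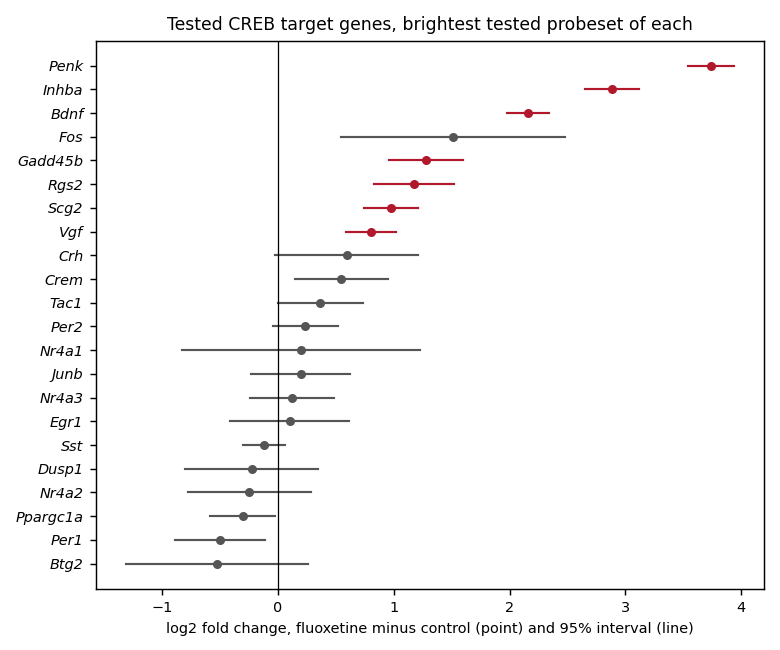
Log2 fold change (fluoxetine minus control, points) with its 95% interval (lines) at the brightest tested probeset of the 22 tested CREB target genes. The 7 that passed, in red, run from Vgf at 0.80 to Penk at 3.74, and the others, in grey, lie on both sides of zero.

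Scg2 and Sst are shown side by side because both carry the whole response element close to the start and only Scg2 passed. The Scg2 window is chr1:79439977-79440276, minus strand, with the motif beginning 68 bases before the start, and the Sst window is chr16:23890795-23891094, minus strand, with the motif beginning 48 bases before the start, both on GRCm38.p6.
Scg2: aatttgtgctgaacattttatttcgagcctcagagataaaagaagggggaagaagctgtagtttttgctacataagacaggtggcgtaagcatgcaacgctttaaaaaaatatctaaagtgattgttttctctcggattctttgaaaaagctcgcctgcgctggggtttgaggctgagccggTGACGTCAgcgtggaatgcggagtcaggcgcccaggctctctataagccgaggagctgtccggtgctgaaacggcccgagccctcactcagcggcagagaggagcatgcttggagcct
Sst: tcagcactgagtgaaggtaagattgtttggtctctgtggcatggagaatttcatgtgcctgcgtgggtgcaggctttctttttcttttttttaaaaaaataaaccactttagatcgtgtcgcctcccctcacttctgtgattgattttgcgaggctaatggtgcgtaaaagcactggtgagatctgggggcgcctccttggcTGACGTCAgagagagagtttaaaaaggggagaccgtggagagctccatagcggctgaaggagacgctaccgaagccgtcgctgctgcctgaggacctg
Of the 21 target genes in the promoter table, 6 held the 8-base motif (28.6%) and 18 held it or a half-site (85.7%), in a list chosen for such genes. Of the 4 tested target genes with the 8-base motif, Scg2 rose and Btg2, Dusp1 and Sst did not pass. Of the 10 with a half-site alone, 2 rose, Bdnf and Rgs2. The windows of Gadd45b and Inhba, the latter admitted through the treated arrays alone, held neither, and both genes passed. A further 6 tested targets, Penk and Vgf among them, had no entry in the table and could not be classed.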

How the data were processed

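Hippocampal RNA of 2 control and 2 fluoxetine pools of male DBA/2J mice was hybridised to 1 array per pool. The deposited table holds 1 linear intensity per probeset and array, made by the authors in ArrayAssist with the GCRMA algorithm per the labels, together with a minimum intensity of 100 and a 2-fold rule without a test. The versions they used are not given here. GCRMA corrects background by probe sequence and pulls dim probesets towards a floor. The deposited intensities were taken to log2 with no pseudocount, and 64 Affymetrix controls were left out. Testing required an intensity of 100 in 2 or more arrays, which 16938 probesets had. Genes were named from the platform table, from probesets with 1 symbol (34958, against 932 with several and 9211 with none), and represented by their brightest tested probeset.

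The test was limma's moderated one (version 3.58.1, R 4.3.3; lmFit, eBayes), two-sided and with no covariate, adjusted by Benjamini-Hochberg across every tested probeset. Group means are geometric, intervals are 95% intervals of limma's moderated statistic, and an exact permutation test of these 4 arrays cannot go below 0.333. Where all arrays of 1 group were under 100, the fold is a bound against 100. The number of arrays limits the precision. On simulated data for this comparison (16938 probesets, 10 runs with 200 changed), 6.6% of log2 changes of 0.5 and 80% of changes of 1 were recovered. Of all calls in these runs, 5.56% were false. The real data had 3816 probesets at an unadjusted p under 0.05 by limma, so their share of changed probesets may differ. The simulated rates may then not hold for the real data.

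Members and lists were chosen with earlier results of these data known. Members named by rule are those called, the 4 of largest difference and the brightest per step, and the PKA, CREB, CRTC and Pde4 genes. Further tested members were named outside this rule: Adcy2, Adcy5, Adcy6, Pde8b, Pde10a, Akap2, Akap5, Akap6, Akap8l, Akap9 and Akap12. Named list genes are those called and up to 3 of largest difference, with a few named after their values were seen.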

Additional observations from a re-analysis of the deposited data

How the results depend on the processing

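Counts of calls depended on the settings. The base values were 291 called probesets over all, 1 member probeset, 1 member gene and 11 of the 89 tested pathway genes. With no intensity filter all 4 counts were 0 by limma (5396 probesets at an unadjusted p under 0.05, 29 of them members). With any 1 array left out each count ranged from 0 to 0, with 2657 to 3515 probesets, and 18 to 24 member probesets, at an unadjusted p under 0.05. With at least 100 in all 4 arrays, where Creb3l2 was not tested, and with values under 100 set to 100, the member counts were 0 and 0. With eBayes trend and robust settings 532 probesets, 4 member probesets (3 higher and 1 lower) and 3 member genes passed, Adcy1 (adjusted p = 0.0294) and Prkar1b (0.0438) joining Creb3l2 (0.0147). Without the probesets whose suffix allows several transcripts there were 193 probesets in all, from fewer tested, and the 2-fold rule 134.

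The pool numbers are shared by the groups, but no label ties same-numbered pools together. With the pool number as a replicate block 9 probesets, 0 member probesets, 0 member genes and 3 pathway genes passed, and Creb3l2 was at adjusted p = 0.0809. The deviations of same-numbered pools correlated at 0.139 over tested probesets.

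Step medians over all tested probesets in place of 1 per gene moved from -0.01 to -0.15 for cyclases, from -0.10 to -0.0042 for anchoring proteins, from -0.07 to -0.12 for cGMP-directed phosphodiesterases, from 0.02 to 0.0718 for Creb1 and from 0.79 to 0.13 for the Creb3 and Creb5 families. The 0.79 is over 2 tested genes, Creb3 and Creb3l2, and Creb3l2 was admitted through the fluoxetine arrays alone. No Creb5 probeset was tested. With median centring the cGMP-directed median was -0.05 and that of cyclases 0.00.

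Of the 33 member genes named by the rule above, 7 changed sign in some setting, all near zero and none called. The members named outside that rule, Pde10a and Akap2 near zero among them, were not followed through the settings. Under quantile normalization Pde6d was at 0.0026, Pde3b at 0.0084 and Prkar2a at 0.0146, and under median centring Pde6d was at 0.0021. With each array left out in turn, Pde6d ranged from -0.0900 to 0.0626, Pde3b from -0.104 to 0.0602, Prkaca from -0.119 to 0.0307, Prkacb from -0.175 to 0.0738, Prkar1a from -0.0739 to 0.0249, Prkar2a from -0.0593 to 0.0239 and Pde5a from -0.265 to 0.133. The causes were not tested beyond the fewer arrays or probesets named.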
